A study of Mus musculus with 6 samples.

Results

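The genes described here are the 3 iodothyronine deiodinases (Dio1, Dio2 and Dio3), both thyroid hormone receptor genes (Thra and Thrb) and the membrane transporter Slc16a10. They were chosen by name from the table of raw read counts, so that 6 of the 25239 listed genes are described, and all 6 had enough counts to be tested among the 15256 genes that were. Read counts came from bulk RNA-seq of mouse thyroid organoids at day 31, in 3 groups of 2 libraries. All libraries derive from 1 modified mouse embryonic stem cell line, a selected clone of G4 RosaLuc that carries the cassettes TRE-Nkx2-1-Pax8 and bTg-NES-BrafV637E-ERT2. In this line doxycycline, given for 5 days at 1 µg/ml, drives Nkx2-1 and Pax8, transcription factors of the thyroid lineage, and a bovine thyroglobulin promoter drives a Braf V637E protein fused to ERT2, which needs 4-hydroxytamoxifen (4OHT) to be active. Every group therefore carries the transgene and was matured with 8-Br-cAMP for 2 weeks. The cAMP group received cAMP alone per the labels, with ethanol as the vehicle of 4OHT per the study's methods. Per the labels, the 4OHT and PD+LY groups received cAMP as well. The 4OHT group received 1 µM 4OHT for 5 days. The PD+LY group received 1 µM 4OHT with 250 nM PD0325901, a MEK inhibitor, and 5 µM LY204002, a PI3K inhibitor, for 3 days. The study's methods give 4 days of 4OHT before any inhibitor was added, so that time in 4OHT also differed between the 4OHT and PD+LY groups and cannot be told apart from the inhibitors. The study's methods call the libraries duplicates, each from at least 3 pooled wells, and nothing says that they came from separate differentiations, so the p-values measure only the spread between these libraries.

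Thyroid hormone is made by follicular cells mainly as thyroxine (T4), and its activity in a tissue depends on deiodination, uptake and receptors. Dio1 and Dio2 remove an outer-ring iodine and convert T4 to the active hormone T3. Dio3 removes an inner-ring iodine and inactivates both T4 and T3. All deiodinases are selenoproteins. T3 acts through the nuclear receptors encoded by Thra and Thrb, and Slc16a10 (MCT10) carries T3, T4 and aromatic amino acids across the cell membrane. Dio1 and Dio2 are expressed in normal thyroid tissue, while Dio3 is best known from placenta and fetal tissues. The study's thyroid differentiation score also uses Dio1, Dio2, Thra and Thrb.

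The proximal promoters of the deiodinases are shown because these genes had the largest changes and because Dio2 is known as a cAMP-responsive gene. The sequences are from RefSeq (GRCm38.p6), 5′ to 3′ on the strand of the gene, and they end just before the RefSeq start or, for Dio3, before the annotated gene. Capitals mark the cAMP response element core TGACG found on both strands, where the matches overlap in a palindrome.
Dio1 (chr4:107307169-107307418, minus strand): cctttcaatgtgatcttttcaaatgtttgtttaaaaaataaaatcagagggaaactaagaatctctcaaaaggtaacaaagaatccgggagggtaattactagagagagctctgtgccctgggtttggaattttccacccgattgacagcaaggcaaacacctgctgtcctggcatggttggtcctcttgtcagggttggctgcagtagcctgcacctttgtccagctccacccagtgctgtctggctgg
Dio2 (chr12:90739039-90739288, minus strand): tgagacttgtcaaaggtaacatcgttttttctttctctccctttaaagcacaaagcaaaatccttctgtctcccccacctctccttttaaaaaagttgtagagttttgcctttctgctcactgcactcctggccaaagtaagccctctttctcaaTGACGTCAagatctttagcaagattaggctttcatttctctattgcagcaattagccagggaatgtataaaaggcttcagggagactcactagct
Dio3 (chr12:110278980-110279067, plus strand): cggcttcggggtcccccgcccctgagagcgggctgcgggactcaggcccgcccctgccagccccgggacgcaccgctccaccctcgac
In windows from 250 bases before to 50 bases after a RefSeq start, searched on both strands, TGACG occurred in 20.8% of 32851 windows, and the palindrome, searched for after the Dio2 match was seen, occurred in 1.79%. In Dio2 the matches lay at -95 to -91 from the start on the gene's strand and at -92 to -88 on the other. AGGTCA, the core letters of thyroid hormone response elements, occurred in 16.3% of windows, and one Thrb window held both AGGTCA and TGACG. The AP-1 letters TGANTCA (7.81% of windows), the FOXO letters TGTTTAC (3.65%) and the ETS core CCGGAA (14.9%) were not found in the windows of Dio1, Dio2, Dio3, Thrb or Slc16a10, the 5 genes with a RefSeq window. The match of letters is a description and not a binding site.

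The libraries held 14898409 to 20637959 counts, so that 1 count was worth 0.0486 to 0.0667 counts per 1000000 counts (CPM). Levels below are TMM-scaled CPM (TMM corrects for library composition), and rose or fell means an adjusted p under 0.05 in edgeR's quasi-likelihood test over the 15256 tested genes. A count of Braf cannot check the induction, since the fusion mRNA is made in every group and 4OHT acts on its protein. Summed CPM of 12 thyroid follicular markers were 1101 to 1651 in cAMP, 564 to 756 in 4OHT and 988 to 1988 in PD+LY, with 6 markers rising and 0 falling in PD+LY relative to 4OHT. Slc26a4 was at 0 in 4OHT library 1 and no other follicular marker was at 0. Summed CPM of 12 mesenchymal markers were 1379 to 1519, 2472 to 2617 and 4239 to 4985 in the same order, with 4 rising and 4 falling in PD+LY relative to 4OHT and none at 0. Sums for 8 pluripotent markers were 3561 to 4230 over all libraries, but single markers moved both ways. Of these, 2 rose and 2 fell in PD+LY relative to 4OHT, and 4 rose and 2 fell relative to cAMP. Sums for 8 glial markers were 66.7 to 68.3, 47.9 to 53.9 and 37.8 to 39.5 in cAMP, 4OHT and PD+LY, with 1 rising and 2 falling in PD+LY relative to 4OHT. For endothelial, neural, visceral endoderm or liver and cardiac muscle lists, 7, 8, 7 and 7 markers were tested. In PD+LY relative to 4OHT 0, 2, 1 and 0 of these rose and 0, 1, 3 and 1 fell. In 4OHT relative to cAMP 1, 0, 0 and 0 rose and 3, 2, 0 and 0 fell. The visceral endoderm or liver marker that rose was Ttr. The organoids were enriched for follicles but still held other cells, and in bulk RNA fewer cells of a type and less RNA per cell cannot be told apart.

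Dio1 was lowest in 4OHT and highest in PD+LY. Dio1 lies on chromosome 4 (107291465 to 107307169, minus strand, GRCm38) with 5 exon blocks. It had 2.95 and 2.24 CPM (47 and 46 counts) in the cAMP libraries, 1.27 and 1.04 CPM (19 counts each) in 4OHT, and 6.67 and 3.45 CPM (131 and 71 counts) in PD+LY. The groups did not overlap, and the PD+LY libraries stood furthest apart, by 1.93-fold. Dio1 rose in PD+LY relative to 4OHT (log2 fold change 2.13 ± 0.39 SE, 95% interval 1.28 to 2.98, adjusted p = 0.00263). In 4OHT relative to cAMP the log2 fold change was -1.16 ± 0.41 (95% interval -2.06 to -0.26), with an unadjusted p of 0.0155 in the quasi-likelihood model and an adjusted p of 0.108. In PD+LY relative to cAMP it was 0.97 ± 0.35 (adjusted p = 0.0620), and this value ran from 0.42 without PD+LY library 1 to 1.37 without PD+LY library 2, where the adjusted p was 0.0120.

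Dio3, the inactivating enzyme, had the largest change of the 6 genes. It is a gene of 1 exon on chromosome 12 (110279068 to 110281097, plus strand). It had 2.64 and 1.41 CPM (42 and 29 counts) in cAMP, 1.20 and 1.04 CPM (18 and 19 counts) in 4OHT, and 7.74 and 8.36 CPM (152 and 172 counts) in PD+LY. The PD+LY libraries were both well above all the others and differed from each other by only 1.08-fold. Dio3 rose 7.18-fold in PD+LY relative to 4OHT (95% interval 4.33 to 11.9, adjusted p = 0.000174) and 4.04-fold against cAMP (2.54 to 6.42, adjusted p = 0.000591). In 4OHT relative to cAMP its log2 fold change was -0.83 ± 0.37 (adjusted p = 0.201), and leaving out 1 library gave -1.23 to -0.34, the smallest without cAMP library 1.

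Dio2, the other activating enzyme, took another course and was higher in each successive group. Dio2 lies on chromosome 12 (90724552 to 90738438, minus strand) with 2 exon blocks. It had 15.0 and 11.1 CPM (238 and 228 counts) in cAMP, 16.1 and 20.1 CPM (241 and 366 counts) in 4OHT, and 29.4 and 20.3 CPM (577 and 417 counts) in PD+LY. The lower PD+LY library was only just above the higher 4OHT library. Dio2 rose in PD+LY relative to cAMP (1.91-fold, 95% interval 1.39 to 2.62, adjusted p = 0.00660), a call that ended without cAMP library 2 (log2 fold change 0.74, adjusted p = 0.0595). The steps from cAMP to 4OHT (log2 fold change 0.48 ± 0.21, adjusted p = 0.193) and from 4OHT to PD+LY (0.45 ± 0.20, adjusted p = 0.130) did not pass, and the latter was 0.70 without PD+LY library 2 (adjusted p = 0.0217) and 0.16 without PD+LY library 1. In the annotation, 100 exon bases of Dio2 (1.72%) also belong to Gm26512 on the other strand, and reads there could not be told apart because counting ignored strand.

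**Figure D1:**
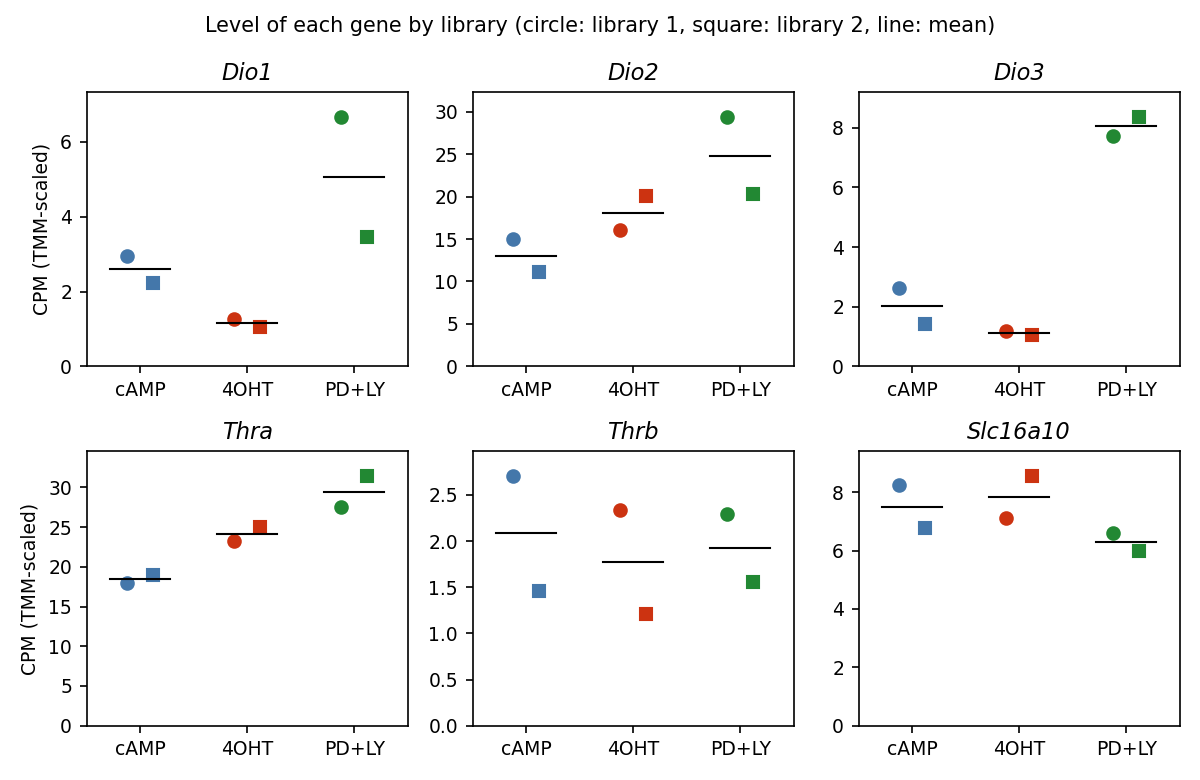
TMM-scaled CPM of each gene (vertical axis, starting at 0) in the cAMP, 4OHT and PD+LY groups (horizontal axis), with a circle for library 1, a square for library 2 and a line at the mean. Dio1 and Dio3 are lowest in 4OHT and highest in PD+LY, Dio2 and Thra are higher in each successive group, and Thrb overlaps in all groups.

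The balance between deiodinases was compared as a ratio of counts per exon base within each library, which does not depend on library scaling. The ratio of Dio2 to Dio1 was 1.70 and 1.66 in cAMP, 4.20 and 6.37 in 4OHT, and 1.49 and 1.98 in PD+LY. Both 4OHT libraries were thus above all 4 others, and the cAMP and PD+LY libraries overlapped. The difference in the log2 ratio was 1.62 in 4OHT relative to cAMP and -1.59 in PD+LY relative to 4OHT (2-sided exact permutation p = 0.33 for each, the smallest that 2 libraries against 2 can give), and 0.03 in PD+LY relative to cAMP (exact permutation p = 1.0). The ratio of Dio3 to Dio1 was 0.868 and 0.616 in cAMP, 0.921 and 0.970 in 4OHT, and 1.13 and 2.34 in PD+LY. It did not overlap between any groups. In PD+LY relative to cAMP the log2 difference was 1.15, and without PD+LY library 2 it was 0.62 (exact permutation p with all libraries 0.33).

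The receptor gene Thra had the highest mean CPM of the 6 in every group and was higher in each successive group. In PD+LY library 1, however, Dio2 stood above it (29.4 beside 27.5 CPM). Thra lies on chromosome 11 (98740638 to 98769006, plus strand) and encodes the T3 receptor TRα1 together with splice forms that do not bind T3, which counts per gene cannot separate. It had 17.9 and 18.9 CPM in cAMP (285 and 389 counts), 23.3 and 25.1 CPM in 4OHT (349 and 457 counts), and 27.5 and 31.4 CPM in PD+LY (540 and 646 counts). The groups did not overlap and the libraries of a group were at most 1.14-fold apart. Thra rose 1.60-fold in PD+LY relative to cAMP (95% interval 1.30 to 1.96, adjusted p = 0.00371). Its log2 fold changes in 4OHT relative to cAMP (0.39 ± 0.14, adjusted p = 0.107) and in PD+LY relative to 4OHT (0.28 ± 0.13, adjusted p = 0.148) did not pass. Of the Thra exon bases, 263 (5.70%) are shared with Nr1d1 on the opposite strand, a circadian repressor gene with 408 to 677 counts per library. Nr1d1 had log2 fold changes of 0.15 in 4OHT relative to cAMP, -0.66 in PD+LY relative to 4OHT and -0.51 in PD+LY relative to cAMP. Whether reads in the shared bases were added to the Thra count or lost from it was not tested.

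Thrb, the other receptor gene, was measured at low counts and showed no separation. Thrb lies on chromosome 14 (17660261 to 18038090, plus strand). It had 2.70 and 1.46 CPM in cAMP (43 and 30 counts), 2.33 and 1.21 CPM in 4OHT (35 and 22 counts), and 2.29 and 1.56 CPM in PD+LY (45 and 32 counts). In every group library 1 was higher than library 2, and the 3 groups overlapped. The 95% intervals of the log2 fold change were -1.22 to 0.75 in 4OHT relative to cAMP (adjusted p = 0.803), -0.84 to 1.12 in PD+LY relative to 4OHT (adjusted p = 0.858) and -1.05 to 0.86 in PD+LY relative to cAMP (adjusted p = 0.895), so changes of up to about 2-fold either way lay within or near these intervals and were not detectable with these libraries. Per exon base Thrb stood at 0.0307 to 0.0950 of the Thra level over the 6 libraries, and the groups overlapped in this ratio (exact permutation p = 0.6667 to 1.0).

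The transporter Slc16a10 differed little between groups. Slc16a10 lies on chromosome 10 (40033532 to 40142258, minus strand). It had 8.24 and 6.77 CPM in cAMP (131 and 139 counts), 7.14 and 8.55 CPM in 4OHT (107 and 156 counts), and 6.62 and 5.98 CPM in PD+LY (130 and 123 counts). The PD+LY libraries were the lowest, below all 4 others. The log2 fold change was 0.07 in 4OHT relative to cAMP (95% interval -0.38 to 0.53, adjusted p = 0.871), -0.32 in PD+LY relative to 4OHT (-0.78 to 0.14, adjusted p = 0.295) and -0.25 in PD+LY relative to cAMP (-0.71 to 0.21, adjusted p = 0.419).

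Counted over the 6 genes, 0 passed in 4OHT relative to cAMP, where 8.39% of all tested genes did. By DESeq2 0 passed as well, and at an unadjusted p under 0.05 in the edgeR model 4 did (Dio1, Dio2, Dio3 and Thra) beside 24.0% of all genes. In PD+LY relative to 4OHT 2 rose (Dio1 and Dio3) and 0 fell, where 22.7% of all genes passed in either direction and 10.7% rose. Between PD+LY and cAMP 3 rose (Dio2, Dio3 and Thra) and 0 fell, where 25.7% passed and 12.1% rose. Dio3 passed in both comparisons of PD+LY, which share the PD+LY libraries. A change of at least 2-fold as well, the DEG threshold of the study, was met by 0 of the 6 genes in 4OHT relative to cAMP (2.67% of all genes), by Dio1 and Dio3 in PD+LY relative to 4OHT (7.26%) and by Dio3 in PD+LY relative to cAMP (9.24%). The libraries did not overlap for 4 of 6 genes in 4OHT relative to cAMP (58.5% of all genes), 5 in PD+LY relative to 4OHT (62.3%) and 5 in PD+LY relative to cAMP (61.4%), shares to be read against that background.

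**Figure D2:**
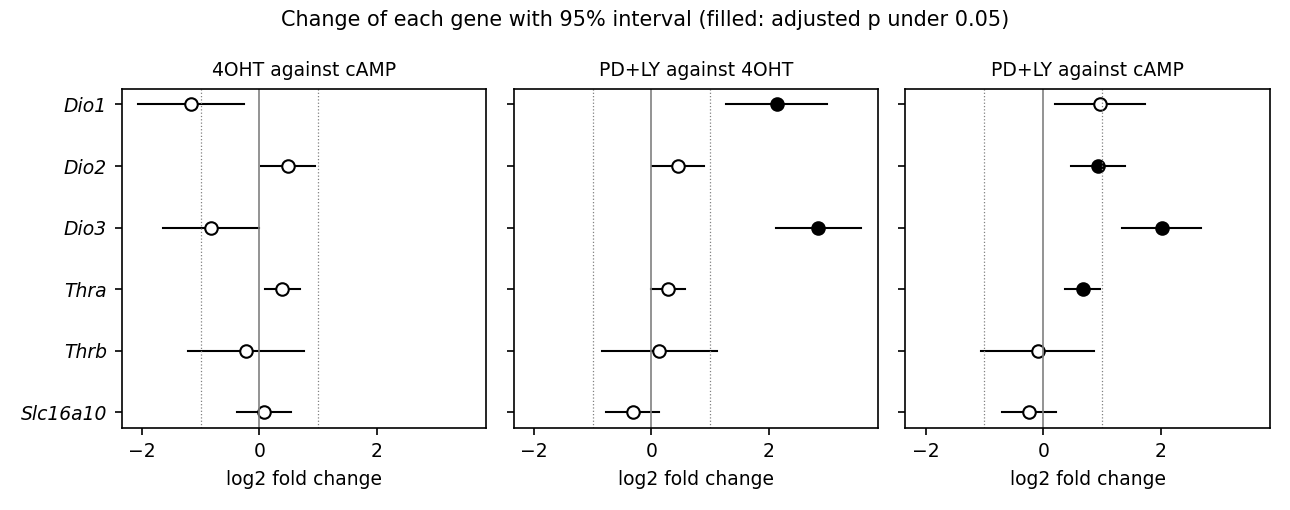
Log2 fold change of each gene (horizontal axis) with its 95% interval for 4OHT relative to cAMP, PD+LY relative to 4OHT and PD+LY relative to cAMP, from edgeR over 2 libraries a group, with filled points for an adjusted p under 0.05 and dotted lines at 2-fold. Dio1 and Dio3 are filled in PD+LY relative to 4OHT, and Dio2, Dio3 and Thra in PD+LY relative to cAMP.

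Per kilobase of exon, the order of the genes also differed between groups. In TMM-scaled reads per kilobase of exon and CPM (RPKM), Thra led in each group. Its cAMP mean was 3.99 ± 0.158 (SD, n = 2), followed by 5.24 ± 0.273 with 4OHT and 6.38 ± 0.599 with PD+LY, and Thrb was last, with 0.281 ± 0.119, 0.239 ± 0.108 and 0.260 ± 0.0702. Dio2 came next to Thra in each group. In cAMP Dio1 followed (1.32 ± 0.256), above Slc16a10 (1.02 ± 0.141) and Dio3 (0.998 ± 0.428), whose libraries overlapped. In 4OHT Slc16a10 (1.07 ± 0.136) stood above Dio1 (0.586 ± 0.0809) and Dio3 (0.552 ± 0.0552), which overlapped. In PD+LY Dio3 (3.97 ± 0.217) overlapped Dio2 (4.27 ± 1.11) and was above Dio1 (2.57 ± 1.16).

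Thyroid follicular and mesenchymal marker sums also moved between the groups. Dio1 was therefore set against the thyroid sum, Thra against the mesenchymal sum, and Dio2 and Dio3 against both. Thrb and Slc16a10 were not set against either. Dio1 had 1.79 and 2.03 counts per 1000 thyroid marker counts in cAMP, 2.25 and 1.38 in 4OHT, and 3.35 and 3.49 in PD+LY. On this scale cAMP and 4OHT overlapped, and both PD+LY libraries were above the other 4. Thyroglobulin (Tg) supplies most of that sum, and against the other 11 markers Dio1 had 34.2 and 28.1 counts per 1000 in cAMP, 25.2 and 16.6 in 4OHT, and 55.9 and 42.6 in PD+LY, with no overlap between groups. Dio3 had 1.60 and 1.28 counts per 1000 thyroid marker counts in cAMP, 2.13 and 1.38 in 4OHT, and 3.89 and 8.47 in PD+LY. Per 1000 mesenchymal marker counts, Dio3 had 1.91 and 0.930 in cAMP, 0.486 and 0.398 in 4OHT, and 1.55 and 1.97 in PD+LY. Dio3 in PD+LY was thus above 4OHT on either scale, but overlapped cAMP on the mesenchymal one. The collagen genes Col1a1, Col1a2 and Col3a1 supplied 64.9% to 66.9% of the mesenchymal sum in cAMP, 76.9% to 77.7% in 4OHT and 85.5% to 87.6% in PD+LY. The other 9 markers summed to 484 and 503 CPM in cAMP, 551 and 604 in 4OHT, and 723 and 526 in PD+LY, where PD+LY overlapped 4OHT. Against these 9, Dio3 had 5.45 and 2.81 counts per 1000 in cAMP, 2.18 and 1.73 in 4OHT, and 10.7 and 15.9 in PD+LY, with no overlap between groups.

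For Dio2 and Thra, higher in each successive group by CPM, the order depended on which mesenchymal markers were in the sum. Against all 12, Dio2 had 10.8 and 7.31 counts per 1000 mesenchymal marker counts in cAMP, 6.50 and 7.67 in 4OHT, and 5.89 and 4.78 in PD+LY, so that PD+LY was lowest and the others overlapped. Thra had 13.0 and 12.5, then 9.42 and 9.57, then 5.51 and 7.41, and fell from group to group with no overlap. Without the 3 collagens Dio2 was highest in PD+LY, with 40.6 and 38.5 counts per 1000 beside at most 30.9 in cAMP and 33.2 in 4OHT, which overlapped. On that scale Thra had 37.0 and 37.7 in cAMP, 42.2 and 41.5 in 4OHT, and 38.0 and 59.7 in PD+LY, where PD+LY overlapped 4OHT and was above cAMP. Against the thyroid sum Dio2 was highest in 4OHT, with 28.5 and 26.5 counts per 1000, beside 9.06 and 10.1 in cAMP and 14.8 and 20.5 in PD+LY. Tg, which supplies most of that sum, itself fell in 4OHT relative to cAMP (log2 fold change -1.10 ± 0.28, adjusted p = 0.0304). Dio2 and Dio3 were not set against the thyroid sum without Tg. These ratios were added after the data were seen, and the part of cell composition in the changes was not tested.

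**Figure D3:**
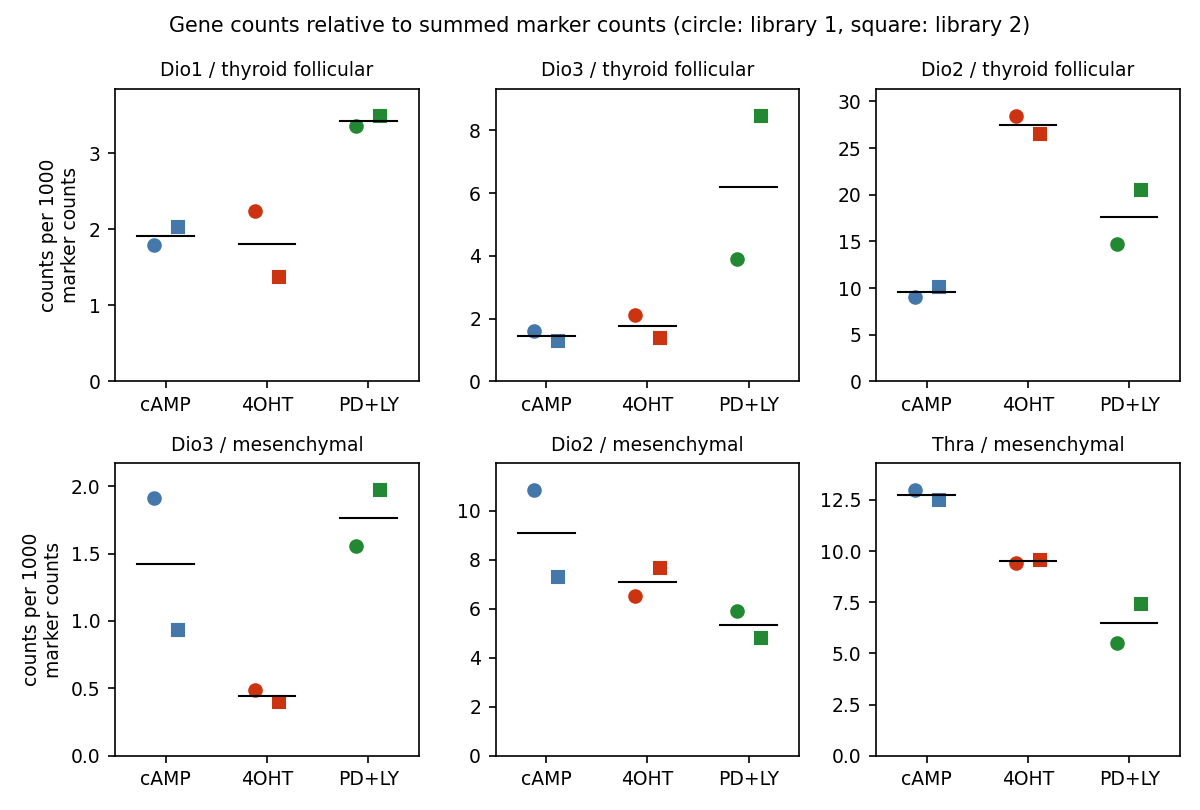
Counts of a gene per 1000 summed counts of a marker list (vertical axes, starting at 0) in each group, with a circle for library 1, a square for library 2 and a line at the mean. Dio1 and Dio3 per thyroid marker are highest in PD+LY, while Dio2 and Thra per mesenchymal marker are lowest there with the 3 collagens in the sum, an order that did not hold without them.

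Other genes of the thyroid hormone pathway, in 6 lists of which 46 of 50 genes had enough counts, moved in both directions. In PD+LY relative to 4OHT 5 rose and 9 fell (30.4% of those tested, beside 22.7% of all genes), in PD+LY relative to cAMP 5 rose and 11 fell (34.8% beside 25.7%), and in 4OHT relative to cAMP 2 rose and 4 fell (13.0% beside 8.39%). Their median log2 fold changes were -0.06, -0.04 and -0.06. The counts of calls depended on single libraries. Of the comparisons, PD+LY relative to 4OHT went from 14 calls to 8 without 4OHT library 1 and 5 without 4OHT library 2. PD+LY relative to cAMP went from 16 to 9 without cAMP library 2. In 4OHT relative to cAMP 6 became 1 without either cAMP library and 0 without either 4OHT library.

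Among 8 tested transporters besides Slc16a10, 1 rose and 2 fell in PD+LY relative to 4OHT. Slco1c1 (OATP1C1), a high-affinity T4 transporter, rose by a log2 fold change of 1.28 ± 0.20 against 4OHT (adjusted p = 0.000894) and 0.97 ± 0.19 against cAMP (adjusted p = 0.00351), with 152 and 205 counts in cAMP, 99 and 164 in 4OHT, and 420 and 346 in PD+LY. Slco4a1, an organic anion transporter that carries thyroid hormone, fell against 4OHT (-1.25 ± 0.22, adjusted p = 0.00176). Slc3a2, the heavy chain that pairs with amino acid transporters, also fell (-0.52 ± 0.10, adjusted p = 0.00268), a call that ended without 4OHT library 2 (-0.47, adjusted p = 0.0515). Slco1c1 and Slco4a1 kept their PD+LY relative to 4OHT calls in all 12 alternatives run. In 4OHT relative to cAMP 2 rose and 0 fell, Slc3a2 (0.35 ± 0.10, adjusted p = 0.0408) and Slc7a5 (0.34 ± 0.09, adjusted p = 0.0371). Those 2 calls each held in 8 of 12 alternatives. Slc3a2 had -0.17 ± 0.10 in PD+LY relative to cAMP (adjusted p = 0.231). In PD+LY relative to cAMP, 1 transporter rose and 2 fell. Slco2b1, another organic anion transporter, had 24 and 37 counts in cAMP, 11 and 10 in 4OHT, and 3 and 7 in PD+LY, and fell (-2.71 ± 0.58, adjusted p = 0.00508; -3.39 without PD+LY library 2). Slco4a1 fell as well (-0.77 ± 0.22, adjusted p = 0.0215), a call that ended without either cAMP library (-0.77, adjusted p = 0.0724 and 0.0784) or PD+LY library 1 (-0.52, adjusted p = 0.0892).

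Of the hormone binding proteins, Crym and Ttr had enough counts. Crym, a cytosolic T3 binding protein, had 65 and 114 counts in cAMP, 26 and 29 in 4OHT, and 8 and 4 in PD+LY, with no overlap between groups. It fell in PD+LY relative to 4OHT (log2 fold change -2.45 ± 0.48, adjusted p = 0.00400) and against cAMP (-3.99 ± 0.44, adjusted p = 6.21e-05), values that were -3.05 and -4.59 without PD+LY library 1. Its fall in 4OHT relative to cAMP (-1.54 ± 0.35, adjusted p = 0.0206) did not hold without cAMP library 2 (-1.29, adjusted p = 0.155), 4OHT library 1 (-1.59, adjusted p = 0.146) or 4OHT library 2 (-1.47, adjusted p = 0.163). Ttr, the plasma carrier transthyretin, rose in PD+LY relative to 4OHT (0.49 ± 0.08, adjusted p = 0.00180).

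Among 12 tested receptor partners and coregulators, 1 passed in PD+LY relative to 4OHT. The coactivator Ncoa2 rose (0.44 ± 0.11, adjusted p = 0.0114), a call that ended without 4OHT library 1 (0.46, adjusted p = 0.0840) or 2 (0.43, adjusted p = 0.117). Of 9 genes of selenoprotein synthesis and selenium supply, 0 rose and 1 fell in PD+LY relative to 4OHT, and 0 rose and 3 fell against cAMP. The 3 that fell were the selenium carrier Selenop (log2 fold change -1.09 ± 0.16, adjusted p = 0.000384) and its receptors Lrp2 (-1.64 ± 0.22, adjusted p = 0.000262) and Lrp8 (-0.79 ± 0.13, adjusted p = 0.000768). Lrp8 was the 1 that fell against 4OHT. In 4OHT relative to cAMP 0 rose and 2 fell, Selenop (-0.66 ± 0.15, adjusted p = 0.0232) and Lrp2 (-1.02 ± 0.22, adjusted p = 0.0146). Those 2 calls each held in 8 of 12 alternatives run. Secisbp2, which binds the selenocysteine insertion element of deiodinase mRNAs, had 0.02 ± 0.12 in PD+LY relative to 4OHT (adjusted p = 0.924). Of 6 genes that add or remove ubiquitin on Dio2, Usp20, which deubiquitinates Dio2, rose in PD+LY relative to 4OHT (0.66 ± 0.17, adjusted p = 0.0148), and Wsb1, of the ligase that targets Dio2, fell (-0.43 ± 0.10, adjusted p = 0.00858). The Usp20 call ended without either 4OHT library or PD+LY library 2 (0.53 to 0.74, adjusted p = 0.0503 to 0.146), and the Wsb1 call without 4OHT library 2 (-0.36, adjusted p = 0.133).

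Genes known to respond to T3 did not move as one. Of 9 tested, 1 rose and 4 fell in PD+LY relative to 4OHT, and 2 rose and 3 fell against cAMP. Klf9, a T3-induced transcription factor, rose in PD+LY relative to 4OHT (0.57 ± 0.13, adjusted p = 0.00829), and this call ended without 4OHT library 1 (0.57, adjusted p = 0.0732) or 2 (0.57, adjusted p = 0.0869). Me1, malic enzyme, fell against 4OHT (-0.53 ± 0.11, adjusted p = 0.00637; -0.38 and adjusted p = 0.131 without 4OHT library 2) and against cAMP (-0.99 ± 0.11, adjusted p = 8.13e-05). Gpd2, the mitochondrial glycerol phosphate dehydrogenase, fell against cAMP (-0.89 ± 0.13, adjusted p = 0.000482), a call kept in all 12 alternatives run, as was that of Me1. Nrgn also fell (-0.96 ± 0.32, adjusted p = 0.0435), in 5 of 12. Klf9 (0.50 ± 0.13, adjusted p = 0.0133) and Hr (0.71 ± 0.21, adjusted p = 0.0260) rose against cAMP, each in 10 of 12. Against 4OHT, Thrsp (-1.52 ± 0.39, adjusted p = 0.0157), Gpd2 (-0.47 ± 0.13, adjusted p = 0.0245) and Nrgn (-1.11 ± 0.32, adjusted p = 0.0255) fell as well, each in 9 of 12.

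**Figure D4:**
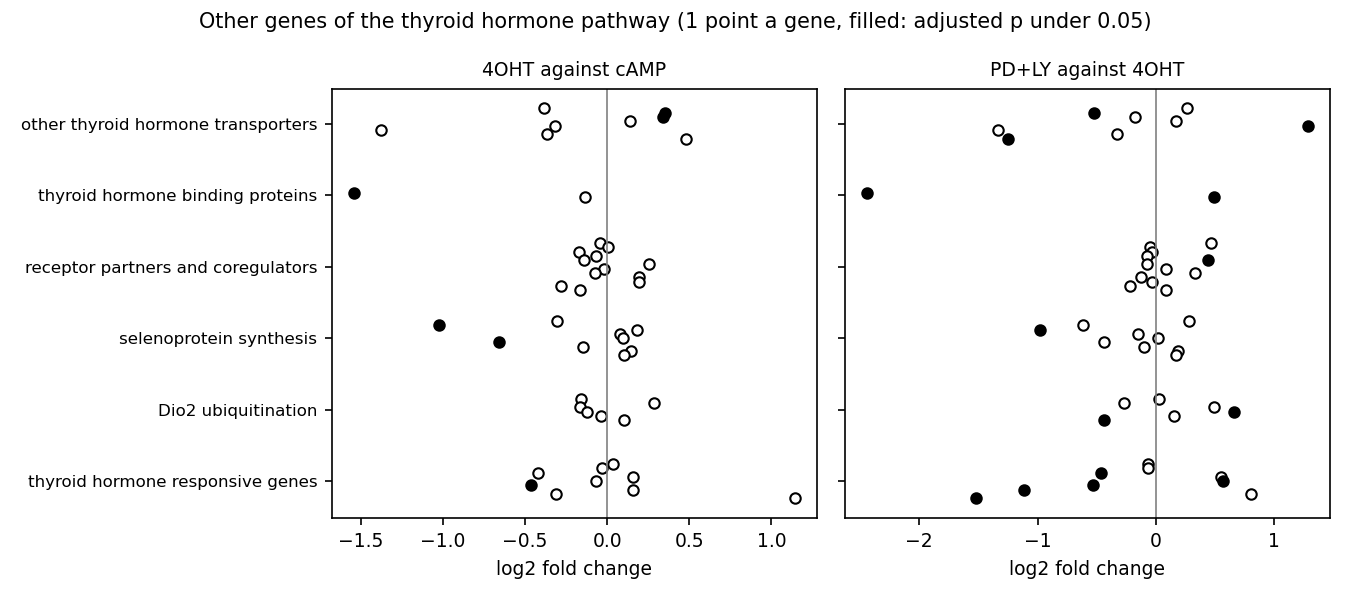
Log2 fold change (horizontal axis) of each tested gene of the 6 pathway lists, 1 point a gene, by list, for 4OHT relative to cAMP and PD+LY relative to 4OHT, with filled points for an adjusted p under 0.05 in edgeR over 2 libraries a group. Filled points lie on both sides of 0, with Crym at -2.45 and Slco1c1 at 1.28 the furthest in PD+LY relative to 4OHT.

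Dio3 sits at one end of the imprinted Dlk1-Dio3 domain of chromosome 12, in which Dlk1, Rtl1 and Dio3 are expressed mainly from the paternal chromosome and Meg3, Rian and Mirg from the maternal one. In PD+LY relative to cAMP, Dio3 and its divergent noncoding neighbour Dio3os rose, while Dlk1, Meg3, Rian and Mirg fell. Dio3os (110275385 to 110278172, minus strand) shares no exon with Dio3 and had 15 and 28 counts in cAMP, 14 and 25 in 4OHT, and 51 and 75 in PD+LY. It rose by 1.42 ± 0.39 on the log2 scale against 4OHT (adjusted p = 0.0227) and by 1.42 ± 0.39 against cAMP (adjusted p = 0.0193). These calls ended against 4OHT without 4OHT library 1 (1.19, adjusted p = 0.150), 4OHT library 2 (1.74, adjusted p = 0.0803) or PD+LY library 2 (1.15, adjusted p = 0.103), and against cAMP without cAMP library 1 (1.19, adjusted p = 0.116) or PD+LY library 2 (1.15, adjusted p = 0.106).

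Dlk1, a Notch-like surface protein gene, had 390 and 666 counts in cAMP, 603 and 1033 in 4OHT, and 257 and 274 in PD+LY. It fell in PD+LY relative to 4OHT (-1.88 ± 0.19, adjusted p = 5.31e-05) and against cAMP (-1.11 ± 0.19, adjusted p = 0.00112), in all 12 alternatives run, while Dio3 rose in both. In 4OHT relative to cAMP Dlk1 rose (0.76 ± 0.18, adjusted p = 0.0218), a call that ended without cAMP library 1 (0.58, adjusted p = 0.162) or 4OHT library 2 (0.50, adjusted p = 0.274). The maternal Rian and Mirg fell in PD+LY relative to cAMP (-1.10 ± 0.12, adjusted p = 6.93e-05, and -1.18 ± 0.23, adjusted p = 0.00292), again in all 12 alternatives. Rian also fell in 4OHT relative to cAMP (-0.63 ± 0.12, adjusted p = 0.00958), in 9 of 12 alternatives. Mirg and Meg3 did not pass there (adjusted p = 0.368 and 0.835). Rian (-0.47 ± 0.12, adjusted p = 0.0166) and Mirg (-0.83 ± 0.23, adjusted p = 0.0241) fell in PD+LY relative to 4OHT. Meg3 fell in that comparison too (-1.004 ± 0.26, adjusted p = 0.0169). These calls against 4OHT held in 10, 9 and 9 of 12 alternatives. Meg3 also fell against cAMP (-1.12 ± 0.26, adjusted p = 0.00856), but not by DESeq2 (-1.11, adjusted p = 0.0715) or without cAMP library 2 (-0.72, adjusted p = 0.0668). Rtl1 had only 3 to 14 counts a library and its groups gave no call (-2.02 ± 0.73 against cAMP, adjusted p = 0.0607).

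**Figure D5:**
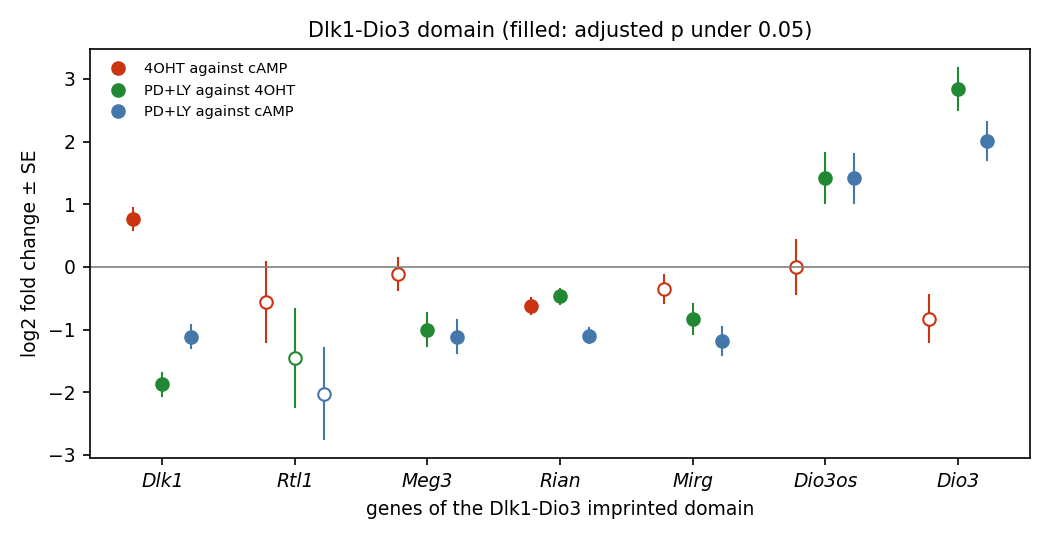
Log2 fold change with its SE (vertical axis) of the genes of the Dlk1-Dio3 domain (horizontal axis, Dlk1 to Dio3) in the 3 comparisons, 2 libraries a group, with filled points for an adjusted p under 0.05. Dio3 and Dio3os lie above 0 in PD+LY, while Dlk1, Meg3, Rian and Mirg lie below.

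Genes in the regions of the others gave a mixed picture. Tshr, the thyrotropin receptor gene, lies further along chromosome 12 (91384563 to 91549808) than Dio2 (90724552 to 90738438). Tshr had 110 and 111 counts in cAMP, 25 and 72 in 4OHT, and 260 and 226 in PD+LY. It rose 4.22-fold in PD+LY relative to 4OHT (log2 fold change 2.08 ± 0.31, adjusted p = 0.000800), where Dio2 had 0.45 ± 0.20. The Tshr value was 1.62 without 4OHT library 1 and 2.86 without 4OHT library 2, and the call held in all 12 alternatives run. Tshr belongs to the thyroid marker list too. Nr1d2, next to Thrb, rose in PD+LY relative to 4OHT (0.76 ± 0.17, adjusted p = 0.00687), a call that ended without 4OHT library 1 (0.71, adjusted p = 0.0783) or 2 (0.83, adjusted p = 0.0597), while Thrb had 0.14 ± 0.45.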

How the data were processed

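Bulk RNA-seq counts of 6 libraries, 2 each of cAMP, 4OHT and PD+LY organoids, were used. The authors used Trimmomatic for trimming, HISAT2 for mapping to mm10 (GRCm38) and HTSeq, without strand, for counting, and the deposited values are raw counts per gene symbol with no normalization. Libraries held 14898409 to 20637959 counts, and replicates varied beyond counting error (chi-square per degree of freedom 4.55 to 17.9).

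Counts were fitted in R 4.3.3 with edgeR 4.0.16 (filterByExpr, minimum count 10, minimum total 15; TMM; 1 quasi-likelihood model of 3 groups over all 6 libraries), with Benjamini-Hochberg adjustment over 15256 genes. The common biological coefficient of variation was 0.105. A DEG, by the study's thresholds, also has at least a 2-fold change. The fit was also run on counts simulated with its own estimates of the spread, which cannot check those estimates. Ratios used counts plus 0.5 and 2-sided exact permutation tests. Exon lengths and positions are from GENCODE M21 and promoters from RefSeq GRCm38.p6.

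The genes and all lists were chosen with earlier results of these data known. Named genes are the 6 chosen ones, up to 4 passing genes per list by smallest adjusted p, annotated neighbours and, for each chosen gene, the 3 genes of at least 50 mean counts with the highest correlation. Genes named outside this rule (Secisbp2, Rtl1, Nrgn) were named after their values were seen. Alternatives were DESeq2 1.42.0, RLE scaling, a filter of at least 10 counts in every library or none, only the groups compared, the replicate block and leaving out each library, and for ratios and levels counts plus 1 and library totals.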

Additional observations from a re-analysis of the deposited data

How the results depend on the processing

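Calls of Dio1 and Dio3 in PD+LY against 4OHT, and of Dio3 and Thra in PD+LY against cAMP, held in all 12 alternatives run, and that of Dio2 in PD+LY against cAMP in 11. In 4OHT against cAMP 0 of the 6 genes passed, but 2 did with no filter on low counts (Dio1, adjusted p = 0.0158, and Dio2, adjusted p = 0.0492), and leaving out 1 library gave 0 to 1 (Dio1 without PD+LY library 2, adjusted p = 0.0428). With no filter Dio2 also passed in PD+LY against 4OHT (adjusted p = 0.0291) and Dio1 in PD+LY against cAMP (adjusted p = 0.00851), as did Dio1 there with the replicate block (adjusted p = 0.0239). In PD+LY against 4OHT 2 passed, and 2 to 3 with 1 library left out. In PD+LY against cAMP 3 passed, 1 as a DEG, and 2 to 4 with 1 library left out. Over all genes 1280 calls in 4OHT against cAMP became 2186 with no filter and 2269 with only the groups compared, and 194 to 2263 with 1 library left out. The 3469 calls in PD+LY against 4OHT became 1140 to 4123, and the 3927 in PD+LY against cAMP 2319 to 4260. Calls among the 57 tested genes of the pathway, imprinted-domain and neighbour lists in 4OHT against cAMP, 8, became 13 with only the groups compared and 1 to 12 with 1 library left out. Those in PD+LY against 4OHT became 7 to 24, and those in PD+LY against cAMP 13 to 22. For the 46 genes of the pathway lists alone, 6, 14 and 16 calls became 0 to 8, 5 to 18 and 9 to 16 with 1 library left out. The cause was not tested. The labels do not say whether same-numbered libraries belong together. Their deviations correlated at 0.0564, 0.165 and 0.0419 over 15256 genes, which with 2 libraries a group cannot settle pairing. With the replicate block 2374, 4743 and 5058 genes passed in the 3 comparisons (4OHT against cAMP, PD+LY against 4OHT, PD+LY against cAMP), and 2, 2 and 4 of the 6. Leaving out 1 library reversed values that never passed. Thrb ran from -0.76 to 0.26 in 4OHT against cAMP, from -0.27 to 0.67 in PD+LY against 4OHT and from -0.48 to 0.39 in PD+LY against cAMP, and Slc16a10 from -0.065 to 0.22 in 4OHT against cAMP. A group left with 1 library was assumed to vary like the others. Dio1 and Dio3 rested on 18 to 47 counts a library in cAMP and 4OHT, and Thrb on 22 to 45 in all groups.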

Other observations

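The genes whose log2 CPM followed each gene most closely over the 6 libraries are given as a description. The 6 points share 3 groups, so that many genes follow any one gene closely. Among about 12223 genes of at least 50 mean counts, Hsf2, a heat shock transcription factor gene, followed Dio1 most closely (Pearson r = 0.9954), then Ercc6l2 (0.995) and Cadm1 (0.9941). Sorl1, a sorting receptor gene, was closest to Dio2 (0.9981), then Crispld2 (0.993) and Cd55 (0.9888). Slc10a7 was closest to Dio3 (0.9954), then Zfhx2 (0.9928) and Sgo2b (0.9919). Wfs1, the wolframin gene, was closest to Thra (0.9982), then Septin8 (0.9964) and Cox7c (0.9959). For Thrb the closest was Psma6 (0.9805), and for Slc16a10 it was Gla (0.9872), the alpha-galactosidase gene. Between the 6 genes themselves r was highest for Dio1 and Dio3 (0.8909) and next for Dio2 and Thra (0.7679), and lowest for Dio3 and Slc16a10 (-0.6603).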
